A study of Gallus gallus with 3 samples.

Results

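CA2 and CA3A, 2 genes of the carbonic anhydrase family, were described among 10663 named genes in breast muscle of the chicken (Gallus gallus). Both were chosen by their values in these same libraries, since they vary widely between them, so their levels and spread are a description and carry no test. The birds were male broilers of the Arbor Acres breed, raised for meat, and were sampled at 42 days of age. All were held in air with 50 ± 3 ppm of ammonia, and messenger RNA was sequenced in 3 libraries of this 1 group, numbered here as in their titles. Libraries of other exposures were not analysed here, and no value speaks to what ammonia does. Nothing in the labels ties the libraries to separate birds, so an SD may hold technical spread alone.

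Carbonic anhydrases are zinc enzymes that turn carbon dioxide and water into bicarbonate and a proton, and back. The reaction loads and unloads carbon dioxide in blood and buffers protons in working muscle. CA2 is a fast cytosolic form, known in birds as a carbonic anhydrase of red blood cells, which in the chicken keep their nucleus, and in mammals also as the form of acid-secreting cells such as osteoclasts. CA3A is the name the gene table gives to 1 of its 2 genes with the synonym CA3. In mammals CA3 is a cytosolic enzyme of low catalytic activity, abundant in slow skeletal muscle fibres, fat cells and liver. HBBA, an adult beta-type globin gene, is used here as a reference for blood held in the tissue.

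The values are taken as FPKM (fragment counts corrected for transcript length and library size), a unit inferred because the tables do not name it. The number of reads behind a value is unknown, and with it any counting interval or floor. Where 3 values follow each other they are those of libraries 1, 2 and 3. Each library listed 36977 transcripts with totals of 569361 to 586193. Library 1 stood somewhat apart: on log2(FPKM + 1), 538 and 586 of the 6595 genes kept (at least 1 FPKM in at least 2 libraries) differed more than 2-fold between library 1 and libraries 2 and 3, against 259 between libraries 2 and 3. The tissue markers matched the label, with the fast troponin and myosin light chain genes among the most abundant (MYL1 at 15976 ± 2880 FPKM, SD, n = 3).

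Both genes were lowest in library 1 and highest in library 2, and CA3A varied far more than CA2. CA2 was listed at 45.7 FPKM in library 1, 355 FPKM in library 2 and 189 FPKM in library 3. This is a 7.76-fold range, and library 3 lay 4.13-fold above library 1. CA3A was listed at 2.11 FPKM in library 1, 254 FPKM in library 2 and 95.0 FPKM in library 3, a 120-fold range. In library 1 CA3A was thus a low transcript, and in the other 2 libraries an abundant one. The means were 196 ± 155 FPKM for CA2 and 117 ± 127 FPKM for CA3A (SD, n = 3), so the SD of CA3A exceeded its mean. HBBA was listed at 24.3, 54.1 and 98.7 FPKM, a 4.06-fold range with library 3, not library 2, the highest.

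**Figure D1:**
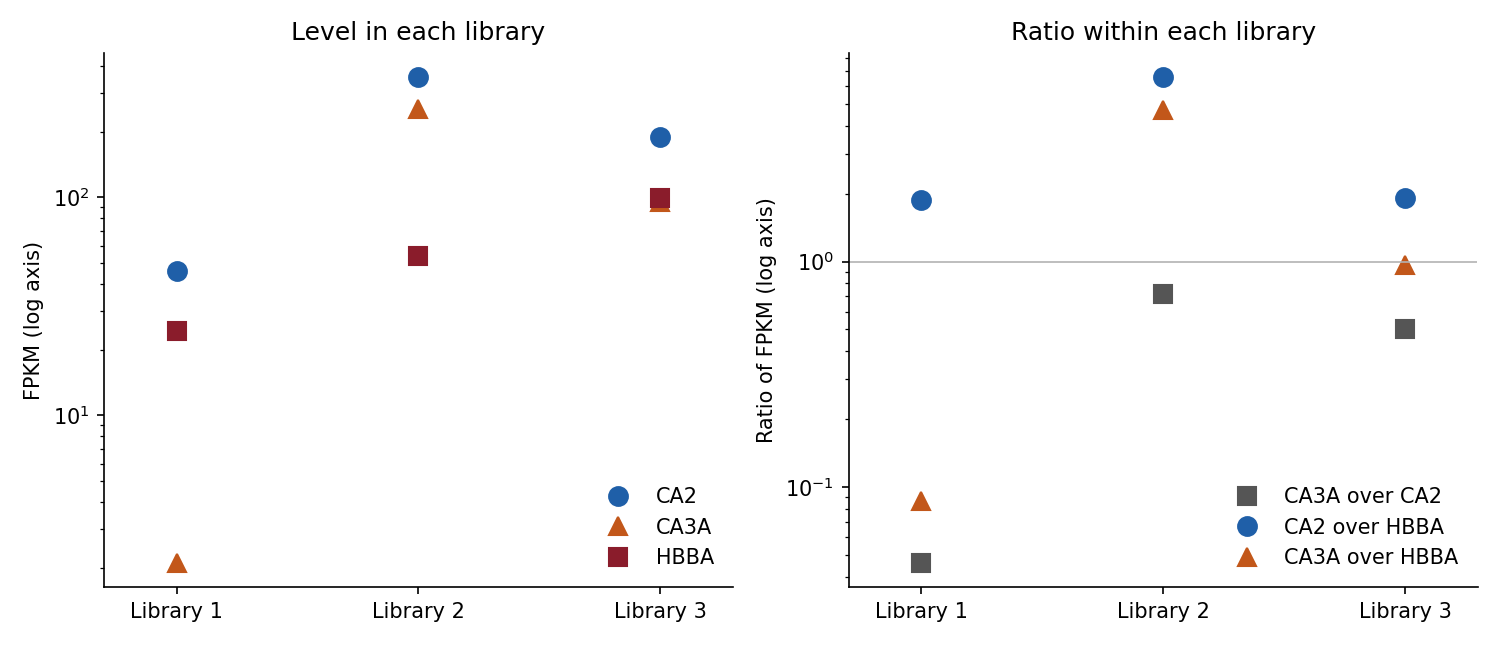
Level of CA2, CA3A and HBBA in FPKM (left, log axis) and the 3 ratios between them (right, log axis) in each of the 3 libraries, 1 point per library. CA3A spans 2.11 to 254 FPKM, and CA2 over HBBA is 1.88 and 1.91 in libraries 1 and 3 and 6.56 in library 2.

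Placed among all named genes, CA2 ranked 1001st of 10663 by level in library 1, 162nd in library 2 and 257th in library 3. CA3A ranked 5890th, 209th and 509th. CA2 exceeded 90.6%, 98.5% and 97.6% of named genes in libraries 1 to 3, and CA3A exceeded 44.8%, 98.0% and 95.2%. CA2 was thus among the higher transcripts in every library, while CA3A lay below the middle of the genes in library 1. As shares of the summed value, CA2 held 0.0080%, 0.061% and 0.033% of libraries 1 to 3, and CA3A held 0.00037%, 0.043% and 0.017%.

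The differences between libraries were read against those of all genes kept. On log2(FPKM + 1), CA2 lay 2.93 higher in library 2 than in library 1 and CA3A lay 6.35 higher; both genes passed 2-fold, as did 2.96% of genes. Library 3 exceeded library 1 by 2.02 for CA2 and 4.95 for CA3A, where 2.93% of genes were more than 2-fold higher. Between libraries 2 and 3 the members parted: CA3A was 1.41 higher in library 2, past 2-fold like 2.43% of genes, and CA2 was 0.91 higher, short of it. These shares place both genes among the genes that differ most, which is the property they were chosen for, and nothing more is read from them. Of the genes kept, 59 (0.895%) were more than 2-fold higher in libraries 2 and 3 than in library 1 and also highest in library 2, the order of both members.

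The SD of log2(FPKM + 1) over 3 libraries was 3.34 for CA3A, the largest of the 6595 genes kept. For CA2 it was 1.50, exceeded by 35 genes, and by 87 with a pseudocount of 0.1. The median over all genes kept was 0.26. Among the 200 genes nearest in mean level, none had a larger SD than CA3A, and 3 had a larger SD than CA2. HBBA had an SD of 0.99, exceeded by 159 genes, so the blood reference also varied between libraries more than most genes.

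**Figure D2:**
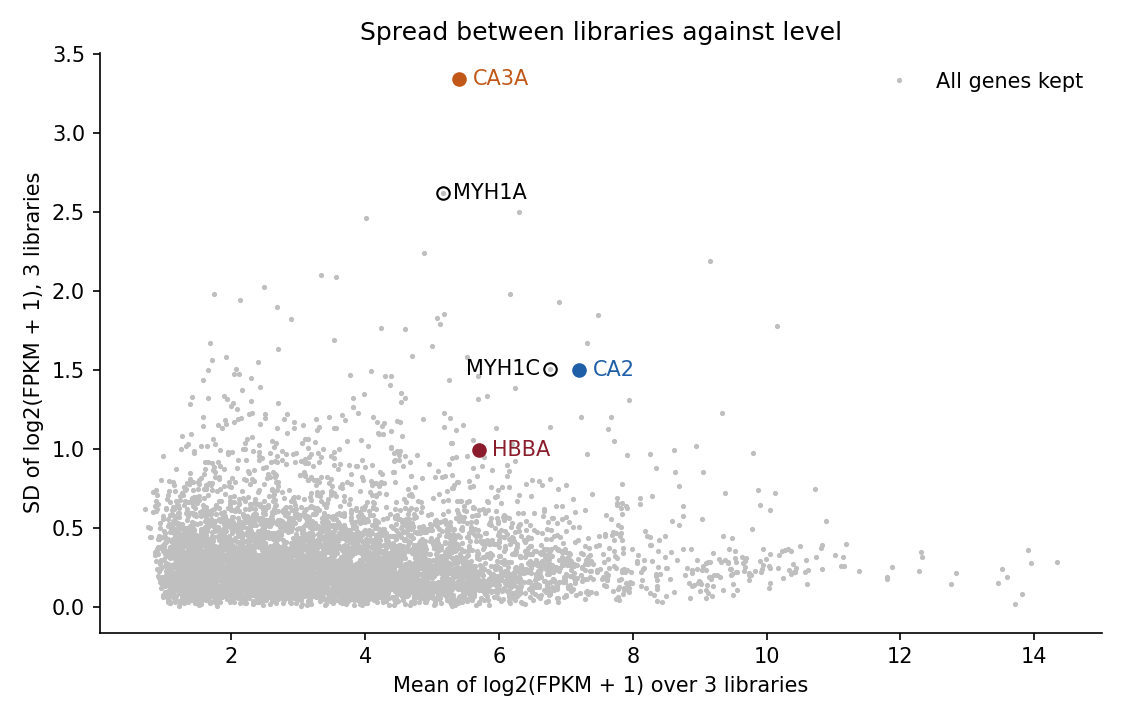
SD of log2(FPKM + 1) over 3 libraries (vertical axis) against the mean of log2(FPKM + 1) (horizontal axis) for the 6595 genes kept, 1 grey point per gene. CA3A is the highest point at 3.34, CA2 lies at 1.50 beside MYH1C, and HBBA at 0.99.

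CA2 exceeded CA3A in every library, but by very different amounts. CA3A stood at 0.046 of the CA2 level in library 1, at 0.715 in library 2 and at 0.503 in library 3. The mean log2 ratio was -1.79 ± 1.85 (SD, n = 3), and -0.73 without library 1. Of the 2 transcripts, nearly all was CA2 in library 1, and the other 2 libraries were closer to equal amounts.

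Set beside the blood reference, CA2 did not keep a fixed proportion to HBBA. The ratio of CA2 to HBBA was 1.88 in library 1, 1.91 in library 3 and 6.56 in library 2. CA2 was 4.13-fold and HBBA 4.06-fold higher in library 3 than in library 1, so these libraries had nearly the same ratio. Library 2 stood alone. From library 3 to library 2 CA2 was 1.88-fold higher, while HBBA stood at 0.547 of its library 3 level. The mean log2 ratio of CA2 to HBBA was 1.50 ± 1.03, and 0.91 without library 2. CA3A followed HBBA less closely, at a ratio of 0.087 in library 1, 4.69 in library 2 and 0.962 in library 3. Its mean log2 ratio to HBBA was -0.29 ± 2.63, with an SD far larger than the mean, and 1.08 without library 1.

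The other red blood cell markers were low. Of 29 listed symbols, 15 were matched and 6 passed the filter on low values. The summed level of the 15 matched genes was 53.7, 91.4 and 135.7 FPKM in libraries 1 to 3. Most of the difference between libraries was HBBA itself, since without it the sums were 29.4, 37.4 and 36.9 FPKM. Without HBBA the list was lowest in library 1 and nearly equal in libraries 2 and 3, over a 1.27-fold range. Of the 6 genes that passed the filter, 1 had the library order of the members, against 13.0% of all genes kept. It was RHCE, a Rh protein of red cells, at 5.24, 13.0 and 8.76 FPKM. Another 3 of the 6 were highest in library 1, as were 51.1% of all genes kept. TFRC, the transferrin receptor, was listed at 6.85, 12.7 and 14.0 FPKM, and GYPC, a membrane glycoprotein of red cells, at 13.3, 7.55 and 7.23 FPKM. Several defining markers were at or near 0. The alpha globin HBA1 was listed at 3.10 FPKM in library 3 and at no more than 7.91e-07 FPKM in libraries 1 and 2. HBAD, the other adult alpha-type globin, did not exceed 3.33e-08 FPKM, and RHAG, a red cell membrane channel, did not exceed 0.488 FPKM. Red cells carry alpha and beta globins together. Whether the values near 0 are failed estimates was not tested, and the values of HBBA and the ratios to it can carry the same limit. The part of blood in the CA2 and CA3A levels was not tested, and in bulk tissue fewer cells of a type and less RNA per cell cannot be told apart.

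The rest of the carbonic anhydrase family was low. Of the other 6 genes that passed the filter, CA13 alone had the library order of the members, an order held by 13.0% of all genes kept. Of 18 listed symbols 12 were matched, and 8 passed the filter on low values, CA2 and CA3A included. Together the members held 61.0% of the family's summed FPKM in library 1, 96.3% in library 2 and 92.9% in library 3. The share of CA2 alone was 58.3%, 56.2% and 61.8%, while that of CA3A was 2.69%, 40.2% and 31.1%. The other 10 genes summed to 30.6, 23.2 and 21.6 FPKM, highest in library 1, where both members were lowest. That sum was led by CA9 in library 1, at 17.6 FPKM, and by CA13 in library 2, at 11.2 FPKM. Of the other 6 genes that passed the filter, 4 were highest in library 1, against 51.1% of all genes kept.

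CA9, a membrane enzyme facing the outside of the cell and induced by low oxygen in mammals, was listed at 17.6, 4.97 and 10.2 FPKM. Its order is the reverse of that of the members, and in library 1 it exceeded CA3A. CA13, a further cytosolic form, was listed at 3.16, 11.2 and 3.82 FPKM and was also highest in library 2. CA8, which lacks catalytic activity, was even, at 1.96, 2.39 and 2.52 FPKM. CA5A, the mitochondrial form, was listed at 3.54, 1.55 and 1.43 FPKM, summed over 2 transcripts. CA4, anchored to the outer cell surface and known from capillaries in mammals, was listed at 1.67, 0.827 and 1.34 FPKM. The mitochondrial and this surface form were thus low in all 3 libraries, although in library 1 CA5A exceeded CA3A. CA12 did not exceed 0.459 FPKM, and CA6, CA7 and CA10 were at or below 0.027 FPKM in every library.

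By mean level the order was CA2, CA3A, CA9, CA13, CA8, CA5A, CA3B, CA4, CA12, CA6, CA10 and CA7. The ranges over libraries of CA2 and CA3A overlapped, as did those of CA3A with CA9 and CA9 with CA13, and each of these steps was smaller than the larger SD of the pair. CA13 lay above CA8 in every library with no overlap, though the difference of the means (3.76 FPKM) was under the SD of CA13 (4.44 FPKM). CA8, CA5A and CA3B could not be ordered, with means between 2.14 and 2.29 FPKM. No test was applied to this order.

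**Figure D3:**
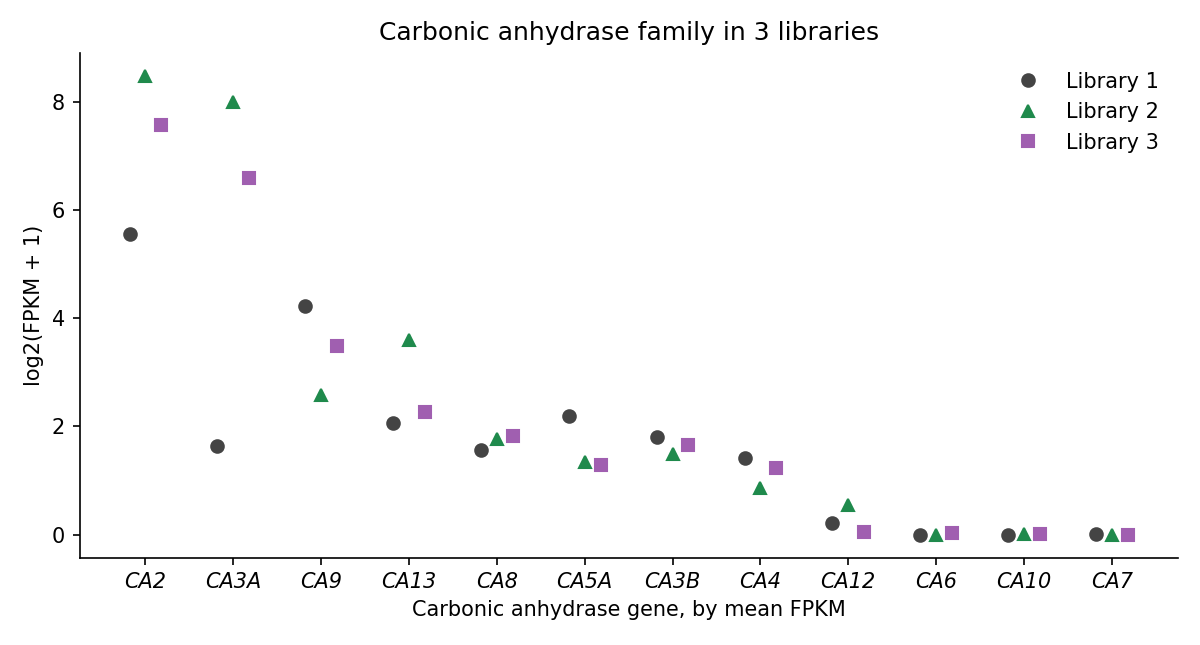
Level of the 12 matched carbonic anhydrase genes as log2(FPKM + 1), ordered by mean FPKM, with 1 symbol per library. CA2 and CA3A are the 2 genes of highest mean, at 196 and 117 FPKM, and library 1 is the lowest symbol of each.

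CA3B did not share the range of CA3A. This other gene with the synonym CA3 was listed at 2.47, 1.81 and 2.14 FPKM, an SD of 0.15 on log2(FPKM + 1) against 3.34 for CA3A. In library 1 the 2 genes were at like levels, and they parted in libraries 2 and 3. Reads of related copies may be divided between them in a way these tables do not show. Summed over both copies, the level was 4.59, 255 and 97.1 FPKM, and the range on the log2 scale was 5.52 against 6.35 for CA3A alone.

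In the reference gene table CA13, CA3A, CA3B and CA2 follow each other on 1 chromosome with no other gene between them, so these 4 genes are neighbours. Apart from the members, which were chosen by their values, CA13 was lowest in library 1 and highest in library 2. That order was held by 13.0% of all genes kept, and not by CA3B. Of the 3 genes taken on each side, 3 had no value matched here, the immediate neighbour on both sides among them. The other 3 did not have that order. E2F5, a cell cycle transcription factor, was listed at 4.10, 3.46 and 3.98 FPKM, and the ubiquitin ligase gene WWP1 at 105, 71.8 and 82.9 FPKM. ATP6V0D2, a proton pump subunit of osteoclasts in mammals, was under 0.42 FPKM in every library. These neighbours were taken by position, and their order was seen before they were described.

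Genes that carry the substrates and products of the reaction were set beside the members. Those of bicarbonate, proton and lactate transport that passed the filter had a median SD of 0.21 on log2(FPKM + 1), against 0.26 for all genes kept. It was larger, at 0.52, for the channels for carbon dioxide and ammonia and also 0.52 for the carboxylases, both described below. The members were chosen for their spread, so a smaller spread than theirs carries no weight. Of 28 listed genes of bicarbonate, proton and lactate transport, 18 were matched and 10 passed the filter. None of the 10 was more than 2-fold higher in library 2 than in library 1, against 2.96% of all genes kept. Of the 10, 1 was more than 2-fold lower in library 2, against 343 of the 6595 genes kept. The median difference of the 10 genes was -0.13 on the log2 scale, equal to the -0.13 of all genes kept. BSG, the chaperone of the lactate carriers, was listed at 198, 172 and 216 FPKM. SLC16A1, a lactate and proton carrier, was listed at 25.5, 10.3 and 18.2 FPKM and was lowest in library 2, where both carbonic anhydrases were highest.

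Of 11 listed channels for carbon dioxide and ammonia, 9 were matched and 4 passed the filter. AQP3, a water and glycerol channel, was listed at 62.2, 33.5 and 54.0 FPKM. RHCE, of the Rh family and also in the red blood cell list, had the library order of the members, as given above. AQP4, the water channel of fast fibres in mammals, was listed at 19.6, 1.05 and 0.959 FPKM, with library 1 alone high. Of the 4, RHCE was more than 2-fold higher in library 2 than in library 1, against 2.96% of all genes kept. AQP4 was more than 2-fold lower in library 2, against 343 of the 6595 genes kept.

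The carboxylases, which use bicarbonate, were matched for 6 of 9 genes, and 5 passed the filter. PCCB, of propionate breakdown, was listed at 15.2, 30.5 and 27.3 FPKM. MCCC2 and MCCC1, the subunits of the leucine pathway carboxylase, were listed at 26.7, 13.1 and 13.7 FPKM and at 10.4, 9.85 and 11.4 FPKM. The summed level of the list was 56.0, 59.5 and 57.4 FPKM, a range of 1.06-fold where CA2 spanned 7.76-fold. That even sum hides members that differ. CPS1, which makes carbamoyl phosphate from ammonia and bicarbonate, was listed at 0.347, 2.61 and 1.99 FPKM. CPS1 and PCCB, 2 of the 5 genes, had the library order of CA2 and CA3A, as had 13.0% of all genes kept. MCCC2 was highest in library 1.

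Markers of the cell types known to hold CA2 or CA3 were set beside the members. The slow fibre list, with 16 of 18 genes matched and 13 that passed the filter, summed to 15109, 15999 and 15896 FPKM in libraries 1 to 3. Nearly all of that sum was TNNC1, a troponin C, at 13403 ± 149 FPKM and CASQ2, which carries the synonym CASQ1 in the gene table, at 1558 ± 301 FPKM (SD, n = 3). These abundant genes may not mark slow fibres in this tissue, so the sum may not measure them. Without both, the list summed to 360, 877 and 882 FPKM, lowest in library 1. Most of this remaining sum was 1 gene, FABP3, a fatty acid carrier, at 267, 712 and 777 FPKM. The defining slow forms MYH7 and MYL2 did not exceed 0.129 FPKM. The other listed myosin genes differed: MYH7B was highest in library 1, at 6.15, 0.166 and 1.26 FPKM. MYL3 was highest in library 3, at 0, 0.119 and 4.56 FPKM. Of the 13 genes, 7 were lowest in library 1, as were 25.8% of all genes kept. Among these were FABP3, given above, and TNNI1, slow troponin I, at 1.49, 17.1 and 2.28 FPKM. Of the 13 genes, 4 had the library order of CA2 and CA3A, as had 13.0% of all genes kept. From library 1 to library 2, 4 were more than 2-fold higher, against 2.96% of all genes kept. Another 2, MYH7B among them, were more than 2-fold lower in library 2, against 343 of the 6595 genes kept. The part of fibre type in the level of CA3A was not tested.

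The fat cell, macrophage and endothelial markers did not have the library order of CA3A in their sums. The fat cell list summed to 341, 207 and 147 FPKM, with 9 of the 13 genes that passed the filter highest in library 1, where CA3A was lowest; of all genes kept, 51.1% were highest there. FABP4, a fatty acid carrier, was listed at 113, 71.3 and 15.5 FPKM, G0S2, an inhibitor of fat breakdown, at 93.6, 42.7 and 27.4 FPKM, and the hormone gene ADIPOQ at 38.4, 36.2 and 46.9 FPKM. None of the 13 fat cell genes that passed the filter had the library order of CA2 and CA3A, against 13.0% of all genes kept. The macrophage, monocyte and osteoclast list summed to 425, 393 and 185 FPKM and was lowest in library 3 for 9 of 9 genes that passed the filter, as were 39.4% of all genes kept. Of the 9 genes, 5 were highest in library 2, where both members were highest, against 26.3% of all genes kept. Without CD74 the sums were 101, 123 and 49.4 FPKM. CD74, which serves antigen presentation, stood at 325, 270 and 136 FPKM, LY86 at 27.3, 22.9 and 12.1 FPKM, and CTSK, a protease of osteoclasts and fibroblasts, at 12.9, 36.2 and 12.3 FPKM. Endothelial markers summed to 107, 66.7 and 74.5 FPKM and were lowest in library 2 for 7 of 9 genes, as were 34.8% of all genes kept. Among these, PLVAP was listed at 57.0, 30.1 and 30.8 FPKM and CDH5 at 14.0, 11.3 and 15.4 FPKM. ESAM, at 8.42, 9.10 and 8.42 FPKM, was highest in library 2 like both members, over a 1.08-fold range. The summed fat cell and endothelial levels were thus highest in library 1, the library with the lowest CA2 and CA3A, and the macrophage sum was so with CD74 in it and highest in library 2 without it. The part of these cell types in the levels of CA2 and CA3A was not tested.

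**Figure D4:**
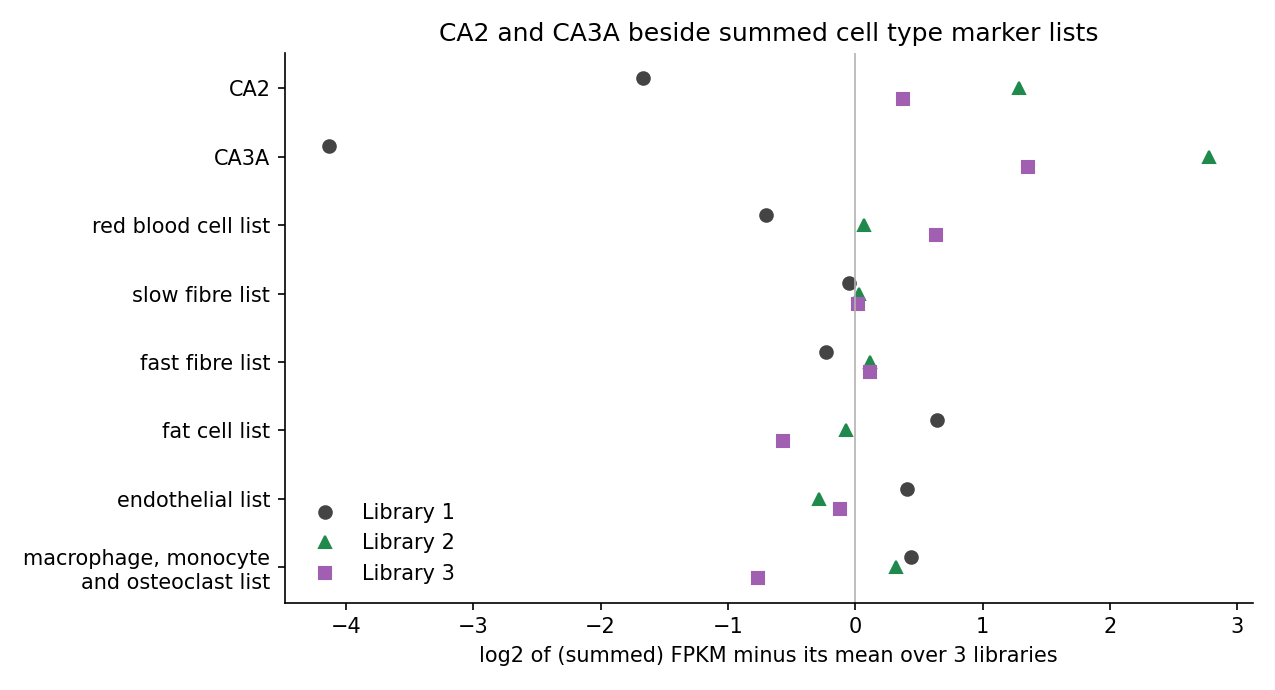
Level of CA2 and CA3A and the summed level of 6 cell type marker lists as log2 of FPKM minus the mean over 3 libraries, with 1 symbol per library. CA2 and CA3A run from library 1 (lowest) to library 2 (highest), the red blood cell list has library 3 highest, through HBBA, and the fat cell, endothelial and macrophage lists have library 1 highest, the last through CD74. The slow fibre sum is nearly all TNNC1 and CASQ2. Without both it is 360, 877 and 882 FPKM in libraries 1 to 3, most of it FABP3.

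The genes whose library profile was most like each member were found by the Euclidean distance between profiles of log2(FPKM + 1), centred on the mean of the gene, among 4364 genes with a mean of at least 5 FPKM. Only 3 libraries enter each distance. For CA2 the nearest was MYH1C, a fast myosin heavy chain gene, at a distance of 0.029, with 33.7, 267 and 138 FPKM in libraries 1 to 3. Next came PENK, the precursor of enkephalin peptides, at 0.219, BEAN1 at 0.414, NPM3, of the nucleoplasmin family of histone chaperones, at 0.422, and MUSTN1, a nuclear protein of muscle and skeleton, at 0.453. PENK was listed at 5.25, 41.6 and 27.2 FPKM and MUSTN1 at 264, 1437 and 706 FPKM. HBBA lay at a distance of 1.46 from CA2, as its 148th nearest gene.

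No gene came as close to CA3A, whose SD was the largest of the genes kept. The profiles were centred but not scaled, so the distance also depends on spread. The nearest was MYH1A, another fast myosin heavy chain gene, at a distance of 1.62, with 4.77, 216 and 35.4 FPKM in libraries 1 to 3. It was followed by DCUN1D5, a factor of cullin neddylation, at 1.95, NPM3 at 2.20, OCM3, of the parvalbumin family of calcium buffers, at 2.24, and the cardiac actin gene ACTC1 at 2.45. OCM3 was listed at 2.46, 99.9 and 10.8 FPKM, and ACTC1 at 276, 2046 and 2608 FPKM, so that ACTC1, unlike CA3A, was highest in library 3. CA2 itself lay at a distance of 2.62 from CA3A, as its 8th nearest gene, and HBBA lay at 3.71, as its 64th. At that same 2.62, CA3A was only the 3756th nearest gene to CA2. The myosin genes have near-identical copies that can share reads, and their split between copies is uncertain. Of 19 listed fast fibre genes 11 were matched, and all 11 passed the filter. They summed to 49742, 63266 and 63228 FPKM, lowest in library 1 and nearly equal in libraries 2 and 3. This was a 1.27-fold range, and most of the sum was MYL1, TNNT3 and TNNC2. Of the 11 fast fibre genes, 6 were lowest in library 1, as were 25.8% of all genes kept. Another 4 were highest in library 1, against 51.1% of all genes kept. More than 2-fold higher in library 2 than in library 1 were 2, against 2.96% of all genes kept. Another 2 were more than 2-fold lower in library 2, against 343 of the 6595 genes kept. The library order of the members was held by 4 of the 11, as by 13.0% of all genes kept. The abundant TNNT3 and TNNC2 were at 15641 ± 3595 FPKM and 14413 ± 764 FPKM (SD, n = 3).

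**Figure D5:**
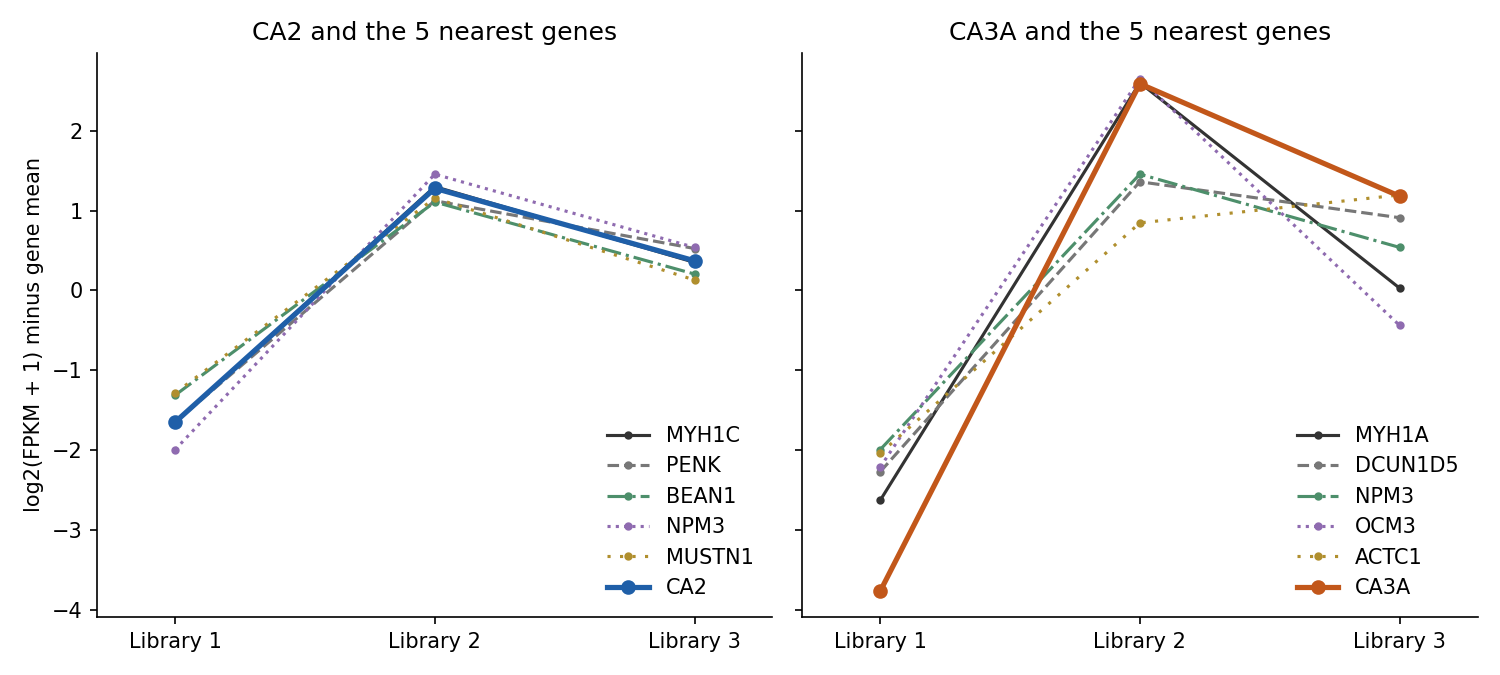
Profiles of log2(FPKM + 1) minus the mean of the gene in libraries 1 to 3 for CA2 (left) and CA3A (right), each with its 5 nearest genes; lines only join the points of a gene. MYH1C lies on CA2 at a distance of 0.029, while the nearest gene to CA3A, MYH1A, is at 1.62.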

How the data were processed

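Each library came as 1 table of 36977 RefSeq transcripts with 1 value each. The deposited values were treated as FPKM, an inference from the values, since the tables name no unit. Per the labels' protocols, RNA was isolated with TRIzol and messenger RNA was taken with oligo(dT) beads. Per the submitters' processing notes the tools were CASAVA 1.7, Bowtie2 and HTSeq, without roles. Build, annotation and quantifying program are not given in the sources used, and depth is unknown.

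Accessions were matched without version to the RefSeq genes of chicken assembly GRCg7b, which served for names and neighbours alone: 13188 transcripts (35.7%) gave 10663 genes. CA2, CA3A and HBBA each rest on 1 transcript, and CA14 and other family members without a matched transcript were not analysed here. Genes had to reach 1 FPKM in 2 or more libraries (6595 did). Levels were compared on log2(FPKM + 1), which shrinks differences between low values. With 1 group of 3 libraries no test was run. Counts, ranks and distances (Python 3.11.15, pandas 2.3.3) were checked on simulated data.

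The members and lists were chosen with earlier results of these data known. Named genes were the matched carbonic anhydrases, the 3 highest and the most variable member (mean of at least 5 FPKM) of each list, and the 5 genes nearest to each member. One gene that this rule names is not reported here. Genes named outside this rule (HBA1, HBAD, RHAG, CPS1, MYH7, MYL2, MYH7B, MYL3, E2F5, WWP1 and ATP6V0D2) were chosen after their values were seen. Alternatives were pseudocounts of 0.1 and 0, 2 scalings, no filter, curated or single transcripts, and each library left out; the sum of CA3A and CA3B and list sums without their most abundant genes were added after seeing the data.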

Additional observations from a re-analysis of the deposited data

How the results depend on the processing

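Both members kept their order of libraries, and HBBA its own, with values as deposited, divided by the library total and after median-of-ratios scaling. The log2 range of CA3A was 6.35, and 6.46 to 6.91 under the 2 scalings and the pseudocounts of 0.1 and 0; that of CA2 was 2.93, and 2.90 to 3.07. Curated or single transcripts changed neither, since each gene rests on 1 transcript. With 1 library left out the range was 0.91 to 2.93 for CA2 and 1.41 to 6.35 for CA3A, lowest for both without library 1, because only the smaller gap between libraries 2 and 3 is then left. Leaving out 1 library gave mean log2 ratios of -2.45 to -0.73 for CA3A over CA2, 0.91 to 1.81 for CA2 over HBBA and -1.54 to 1.08 for CA3A over HBBA, so the last has no stable sign. It was also 0.0048 with CA3A and CA3B summed. CA3A had the largest SD also with no filter, with a pseudocount of 0.1 and under both scalings, while CA2, 36th on the scale used, was 88th with a pseudocount of 0.1, which also took the genes more than 2-fold higher in library 2 than in library 3 from 160 to 303; low genes count for more on that scale. Of the 5 genes nearest to each member, 4 were shared at that pseudocount. No paired analysis was possible because there is only 1 group. Unknown depth limits what can be said of CA3A in library 1 and of the other carbonic anhydrases under about 2 FPKM.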
